A study of Rattus norvegicus with 6 samples.

Results

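The acinar transcription factors are 10 genes that set the identity and the secretory capacity of the enzyme-producing cells of the pancreas: Ptf1a, Rbpjl, Bhlha15, Nr5a2, Gata4, Gata6, Xbp1, Creb3l1, Creb3l2 and Spdef. They were chosen by name, with earlier results of these data known, and each was found on the array through the RefSeq accession of its probe. All 10 had 1 probe with 1 spot each, 10 of 24684 non-control probes. The rat arrays, 1-colour Agilent slides with probes for coding and long noncoding transcripts, were hybridised with Cy3-labelled RNA of whole pancreas from male rats aged 6 weeks. The control group had 3 deposited scans. The acute pancreatitis (AP) group also had 3, from rats given 1 mL/kg of 4% sodium taurocholate, a bile salt, backwards through the pancreatic duct and killed 9 h later. The labels name no strain and do not say whether control rats had a sham operation.

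Acinar cells fill most of the exocrine pancreas and make digestive enzymes as inactive precursors, which pass through the endoplasmic reticulum (ER) and Golgi apparatus into zymogen granules. PTF1A, an E protein partner and RBPJL form a complex that switches on the enzyme genes, and the nuclear receptor NR5A2 and the GATA factors act on many of the same genes. BHLHA15, also called MIST1, enlarges the secretory apparatus, while XBP1 and the CREB3-like factors raise the folding and transport capacity of the ER. Acinar cells lose part of this programme when they take on duct-like features after injury. Several of these genes are not exclusive to acinar cells: plasma cells use Xbp1 and Bhlha15, fibroblasts and mesothelium use Gata4 and Gata6, and mucous cells use Spdef.

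The 6 scans came from 4 arrays, because the second and the third scan of each group shared a slot on the slide per the file headers. Across 2435 spots, which are not replicates, spot deviations from the probe mean correlated at r = 0.952 and r = 0.983 within these scan pairs, and at 0.186 to 0.695 in the other 13. Each group therefore counted as 2 arrays. The labels do not say whether the arrays hold separate rats, and the p-values measure only the spread between these 4 arrays. Each array has its own slot, so slot and group cannot be told apart. The 75th percentile of signal was 140 to 147 on control scans and 70.1 to 77.7 on AP scans. Values below are log2 signals relative to this percentile unless called signals. The percentiles differed by -0.97 on the log2 scale, AP minus control, and scaling removes this from every probe, so a smaller rise can lose its sign without it. Of 5 neutrophil markers tested, 3 were lower on the arrays labelled AP (S100a8 at least 90.7-fold), 1 was higher (Ncf1) and 1 did not pass. The directions given here follow the deposited labels. Every direction would turn if the labels were exchanged between the groups, which was not tested.

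Of the 10 factors, 6 gave a signal well above background on at least 3 of 6 scans and were tested: Bhlha15, Xbp1, Creb3l1, Creb3l2, Gata4 and Spdef. The other 4, Ptf1a, Rbpjl, Nr5a2 and Gata6, did not give an unmarked spot well above background on any scan. On the arrays labelled AP, Bhlha15 was 4.13-fold higher and Xbp1 2.47-fold lower, and both kept their direction and their call in all 26 other settings. Some of these settings cannot turn a direction, because they leave the fold change as it is. Creb3l1 and Creb3l2 were also called higher, but neither was higher without scaling. Of 13220 probes tested, 55.1% were called, 26.9% higher and 28.2% lower (limma, Benjamini-Hochberg adjusted p below 0.05). Of 8732 genes, 56.0% were called, 24.1% higher and 31.9% lower. Of the 6 factors tested, 3 were called higher and 1 lower, 66.7% in either direction. With 6 tested, nothing particular to the factors is read from these shares. The gene lists below were also chosen with earlier results of these data known, so their shares describe the lists and do not test them. Without scaling 64.8% of probes were called, 5.81% higher and 59.0% lower, and 67.8% of genes, 5.30% higher and 62.4% lower. Without scaling 1 factor was higher (Bhlha15) and 2 were lower (Xbp1 and Spdef). Statements below that scans of the groups do not overlap rest on 2 arrays per group. The share of all probes without overlap was not counted. Before scaling, lower AP signals were common, as the 59.0% of probes called lower show.

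**Figure D1:**
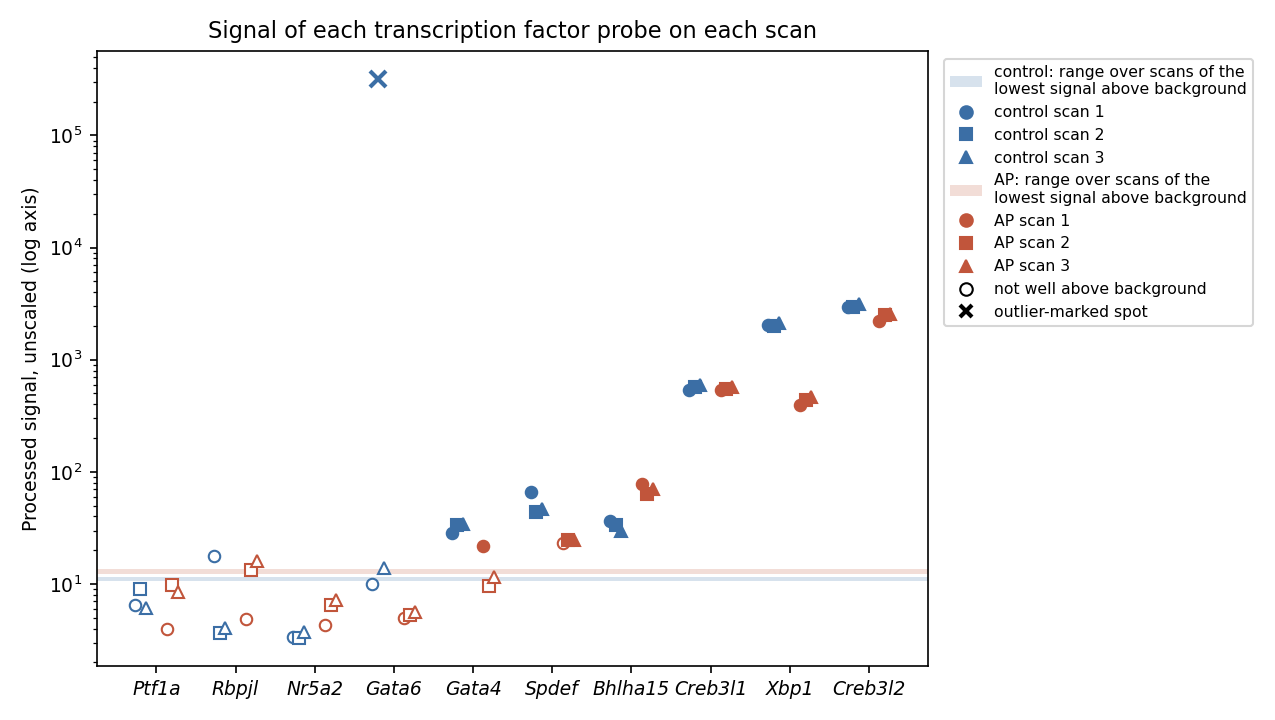
Unscaled processed signal (log axis) of the probe of each of the 10 factors on each scan; blue is control, red is AP, the symbol gives the scan, open symbols are not well above background, and the cross is a spot with an outlier mark. Ptf1a, Rbpjl and Nr5a2 show open symbols on every scan, Bhlha15 is higher and Xbp1 lower on all AP scans, and levels of different probes should not be compared.

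Among the factors of acinar identity, Ptf1a, Rbpjl and Nr5a2 were not well above background on any scan. Ptf1a, the DNA-binding subunit that gives the PTF1 complex its tissue specificity, had signals of 6.51, 9.04 and 6.16 on control scans 1, 2 and 3 and of 3.99, 9.83 and 8.51 on AP scans 1, 2 and 3. Rbpjl, the acinar form of the RBPJ subunit, had 17.6, 3.65 and 4.05 on control scans and 4.87, 13.4 and 16.0 on AP scans. The groups overlapped for both genes. For Rbpjl the higher values came from 1 array of each group, control 1 and the second AP array, and the scanner software called none of them well above background. Nr5a2, a nuclear receptor that keeps the enzyme genes active, had 3.40, 3.32 and 3.72 on control scans and 4.30, 6.52 and 7.14 on AP scans. The AP scans were higher for Nr5a2, but all lay under the lowest signal of any probe called well above background, which was 10.6 to 11.5 on control scans and 12.3 to 13.5 on AP scans. No fold is given for the 4 factors that were not well above background, and these values do not show that the genes were silent.

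The other subunits of the PTF1 complex were measured in part. Tcf3, which encodes the E proteins E12 and E47, was well above background on every scan and rose from -1.05 ± 0.21 to 0.69 ± 0.25 (SD, n = 2 per group). The change was 1.75 ± 0.19 (SE, limma adjusted p = 0.00537), or 0.79 without scaling, where it also passed the threshold (adjusted p = 0.0363). A second probe of Tcf3 lay at -0.98 to -0.91 on control scans and at 0.47 to 0.60 on AP scans, with no overlap. Tcf3 is also an essential factor of developing lymphocytes. Tcf12, another E protein, was at background on all scans with signals of 3.35 to 7.35. Rbpj, the widely expressed relative of Rbpjl and the nuclear effector of Notch, was well above background on 1 control scan only, with signals of 12.5 to 25.3 on control and 8.97 to 15.1 on AP scans.

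The label of the tissue was checked against its enzymes. Probes of the acinar digestive enzymes were detected in both groups, 23 or 24 of 24 on every scan, which shows their presence and not the share of acinar RNA. Of 23 enzyme genes tested, 11 were higher, 2 were lower and 10 did not pass (median 0.53, against -0.03 over all genes tested). This is 47.8% higher and 8.70% lower, beside 24.1% and 31.9% of all genes. Prss2, a trypsinogen, was 3.53-fold higher and Klk1, a kallikrein, 2.40-fold higher, while Pla2g1b, a phospholipase, and Pnliprp2, a lipase-related protein, fell by 0.42 and by 0.42 on the log2 scale. These enzyme calls depended on scaling: without it none was higher, 12 were lower and the median was -0.43. Without scaling the median of all genes was lower still, at -0.99, and 62.4% of genes were called lower. Prss2 (0.86) and Klk1 (0.31) then stayed above 0 without passing, and Pnliprp2 turned to 0.05 with normexp background correction. The count of higher enzymes was 7 without control 1, 7 without the second AP array and 5 without the second control array. In bulk tissue a change in the share of acinar cells and a change in RNA per acinar cell cannot be told apart.

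Gata4 and Gata6 encode zinc finger factors needed for forming the pancreas and for keeping acinar cells differentiated. Gata4 had signals of 28.6, 33.4 and 34.5 on control scans, all well above background. On AP scans it had 21.8, 9.52 and 11.6, and of these the first alone was well above background, so 1 of 2 AP arrays measured it. The AP signals were all below the control signals. On the scaled values the groups overlapped, with -2.22 ± 0.21 on control and -2.31 ± 0.66 on AP arrays (SD, n = 2 per group). The difference was -0.08 ± 0.37 (SE), with a 95% interval of -1.15 to 0.98 and adjusted p = 0.864 (limma). Without scaling it was -1.04 with an interval of -2.14 to 0.06 (adjusted p = 0.0836). The data leave a change of more than 1 log2 unit downward possible.

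Gata6 was at background on 5 scans and extremely bright on 1. Its signals were 9.98 on control scan 1, 14.0 on control scan 3, and 5.02, 5.25 and 5.69 on AP scans 1, 2 and 3. On control scan 2 the same spot read 320057, and the software marked it as not uniform. Control scan 3 is a second scan of that array, and its spot read 14.0 with no mark. The deposited normalized table keeps the marked value as 17.46, the highest in that column, beside 2.51 and 3.61 for the other control scans and 2.48 to 2.82 for the AP scans. The mean of the deposited values is therefore 7.86 ± 8.33 (SD over 3 control scans) against 2.69 ± 0.19 (SD over 3 AP scans).

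Bhlha15 had the largest change among the 6 tested factors after percentile scaling, but that of Xbp1 was larger without scaling and in both normexp settings. Its signals were 36.2, 33.8 and 29.9 on control scans and 78.0, 63.8 and 70.0 on AP scans, all well above background. Every AP scan was above every control scan, before any scaling. Scaled values rose from -2.10 ± 0.10 to -0.05 ± 0.08 (SD, n = 2 per group), a change of 2.05 ± 0.11 (SE, limma adjusted p = 0.00140). The change was 1.09 ± 0.15 without scaling (adjusted p = 0.00459). With normexp background correction it was 0.82 after the percentile shift and 0.63 after quantile normalization (limma adjusted p = 0.0192 and 0.00200). Within the first scan session, which holds 1 scan of each array, it was 1.97 (adjusted p = 0.00134), and in the second, with 1 scan per group and no test, it was 2.21.

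Of 7 tested genes that MIST1 is known to regulate, 2 were higher, 1 was lower and 4 did not pass, and the 28.6% higher were near the 24.1% of all genes (median -0.28, or 0.26 with normexp and the percentile shift, and -0.03 over all genes). Gjb1, which encodes a gap junction connexin of acinar cells, rose 6.96-fold, from 1.15 ± 0.21 to 3.94 ± 0.07 (SD, n = 2 per group), and was still higher without scaling (1.84, limma adjusted p = 0.00102). Tmed6, a cargo carrier between ER and Golgi, was 3.84-fold higher but did not pass without scaling (0.98, adjusted p = 0.0613), and its difference was 0.85 with normexp and the percentile shift. Rab3d, a small GTPase on zymogen granules, was 1.64-fold lower, but its difference was -0.07 with normexp and the percentile shift. The count of higher genes was 1 without control 1 and 1 without the second control array. Rab26, another granule GTPase, differed by 1.03 ± 0.46 (SE), with an interval of -0.30 to 2.35 and adjusted p = 0.140.

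Most tested markers of plasma cells, in which Bhlha15 and Xbp1 are also active, were higher on the same arrays. Of 7 tested, 5 were higher, 1 was lower and 1, Prdm1, did not pass (0.89, limma adjusted p = 0.0930). This is 71.4% higher and 14.3% lower, beside 24.1% and 31.9% of all genes. Their summed signal, in units of the 75th percentile of the scan, was 2.51 to 2.58 on control scans and 32.6 to 33.0 on AP scans. The brightest probes weigh most in such a sum, here on AP arrays those of Pou2af1 (3.89) and Mzb1 (3.75). Prdm1, Pou2af1 and Mzb1 are named after their values were seen. Tnfrsf17, the plasma cell survival receptor, was at background on all control scans and at least 19.2-fold higher on AP arrays. Sdc1, a proteoglycan of plasma cells and epithelia, was well above background on control scans and at background on AP scans, at least 1.08-fold lower, but its difference was 0.19 with normexp and the percentile shift. All 11 lymphocyte markers tested were higher (summed signal 3.82 to 4.57 and 47.6 to 49.3), with Cd79b, a B cell receptor chain, at least 18.3-fold higher. The part of these cells in the Bhlha15 result was not tested.

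The promoter of Bhlha15 is shown because Bhlha15 rose under every setting. The E-box was searched because the products of Tcf3, which also rose, bind E-boxes. Both were chosen after the values were seen. Whether Tcf3 acts on Bhlha15 was not tested. The sequence is RefSeq's, from 250 bases before to 50 after the gene's start, on the minus strand of assembly GRCr8 (chr12:15538250-15538549), written 5′ to 3′. Capitals mark the E-box CACCTG on either strand.
Bhlha15: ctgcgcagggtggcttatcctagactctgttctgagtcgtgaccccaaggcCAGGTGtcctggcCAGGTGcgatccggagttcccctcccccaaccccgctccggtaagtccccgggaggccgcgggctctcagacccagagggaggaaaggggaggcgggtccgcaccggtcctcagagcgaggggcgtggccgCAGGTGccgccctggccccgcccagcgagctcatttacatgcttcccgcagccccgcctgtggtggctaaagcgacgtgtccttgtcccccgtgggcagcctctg
There were 3 matches, starting 199, 186 and 55 bases before the start. Of 33469 promoters of the same length, 18.8% hold at least 1 match. The share that holds 3 or more was not counted. Among the 9 factors with a promoter in the table, Rbpjl also held 1 match, 30 bases before its start. A match describes the letters and does not show that a factor binds there.

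Xbp1 encodes a bZIP factor whose messenger RNA is cut by the ER stress sensor IRE1 to give the active form. Its signals were 2023, 1985 and 2111 on control scans and 398, 441 and 465 on AP scans, with no overlap before scaling. Scaled values fell from 3.81 ± 0.04 to 2.51 ± 0.21 (SD, n = 2 per group), a change of -1.30 ± 0.14 (SE, limma adjusted p = 0.00516). The change was -2.26 ± 0.13 without scaling and ranged from -2.26 to -0.98 over all 26 other settings. Within the first scan session it was -1.30 (adjusted p = 0.00519), and in the second, with no test, -1.20. Where the probe lies relative to the cut was not known, so cut and uncut messenger RNA could not be told apart. No probe on the array matched Ern1, the gene of IRE1.

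Among genes that XBP1 is known to activate, more were called lower than higher. Of 25 tested ER genes, 13 were lower, 2 were higher and 10 did not pass (median -0.45, or -1.41 without scaling, where the median of all genes was -0.99). Lower calls made up 52.0% of this list, which was chosen with earlier results of these data known, against 31.9% of all genes. Hspa5, the main ER chaperone, fell 4.40-fold, from 6.38 ± 0.18 to 4.24 ± 0.01 (SD, n = 2 per group), and Dnajb9, its co-chaperone, was 2.55-fold lower. Both differences were below 0 under all 7 scalings or value sources. Syvn1, a ubiquitin ligase of ER-associated degradation, and Ssr4, a subunit of the translocon-associated complex, were 1.54-fold and 1.41-fold higher, but both lay below 0 without scaling (-0.34 and -0.46). Higher genes numbered 0 without scaling, 5 after quantile normalization and 6 with normexp and quantile normalization. The count of lower genes moved with the scaling: 22 were lower without it and 8 with the median as the scaling point. It was 8 without AP 1, 7 without the second AP array, 6 without control 1 and 6 without the second control array, with medians of -0.48 to -0.45.

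The promoters of Xbp1 and Hspa5 are shown because both genes fell and both carry the ER stress response element, to which ATF6 and NF-Y bind. Both come from RefSeq's GRCr8 table, on the plus strand, at chr14:84604373-84604672 and chr3:38452766-38453065, written 5′ to 3′. Capitals mark the element, searched on both strands as CCAAT, then any 9 bases, then CCACG.
Xbp1: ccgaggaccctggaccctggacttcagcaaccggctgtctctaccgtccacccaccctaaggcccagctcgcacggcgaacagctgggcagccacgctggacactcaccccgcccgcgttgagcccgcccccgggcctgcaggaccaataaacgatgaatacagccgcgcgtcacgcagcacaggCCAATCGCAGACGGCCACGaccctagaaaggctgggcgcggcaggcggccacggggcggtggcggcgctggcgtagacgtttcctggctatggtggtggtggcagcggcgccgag
Hspa5: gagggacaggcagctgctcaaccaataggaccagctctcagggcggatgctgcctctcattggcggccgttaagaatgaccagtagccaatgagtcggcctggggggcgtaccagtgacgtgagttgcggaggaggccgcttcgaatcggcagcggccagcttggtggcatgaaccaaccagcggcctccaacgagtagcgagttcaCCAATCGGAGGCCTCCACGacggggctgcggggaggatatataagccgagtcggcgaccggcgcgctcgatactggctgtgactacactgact
The match began 65 bases before the start of Xbp1 and 43 bases before that of Hspa5. Of 33469 promoters, 22 hold a match (0.0657%), and none of the other 8 factors with a promoter in the table does. Of 23 tested XBP1 target genes with a promoter in the table, 6 hold a match (26.1%). Hspa5 was the only 1 of these 6 called lower. The others, Calr (0.08), Canx (0.63), Creld2 (0.18), Dnajc3 (-0.38) and Hsp90b1 (-0.01), did not pass the threshold. They are named to spell out the count, after their values were seen. The other 12 of the 13 lower genes had no match in this window or no promoter in the table.

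Creb3l1 and Creb3l2 encode ER membrane factors that are cut in the Golgi and then switch on genes of transport between ER and Golgi. Creb3l1 had signals of 541, 568 and 589 on control scans and 538, 543 and 569 on AP scans, and the groups overlapped. Scaled values rose from 1.95 ± 0.10 to 2.87 ± 0.11 (SD, n = 2 per group), a change of 0.92 ± 0.12 (SE, limma adjusted p = 0.00718). Without scaling the difference was -0.03, with an interval of -0.35 to 0.28. Creb3l2 had signals of 2971, 2980 and 3141 on control scans and 2190, 2508 and 2546 on AP scans, all AP scans below all control scans. Its scaled values turned the other way, from 4.38 ± 0.06 to 4.98 ± 0.22, a change of 0.60 ± 0.15 (SE, limma adjusted p = 0.0367). Without scaling the difference was -0.36, with an interval of -0.72 to 0.00306 (adjusted p = 0.0744). The Creb3l2 call was also lost without control 1 (0.56, adjusted p = 0.138), without the second control array (0.64, adjusted p = 0.119) and without the second AP array (0.44, adjusted p = 0.0914), all with limma. These fits leave a group with 1 array. Neither factor was higher without scaling.

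**Figure D2:**
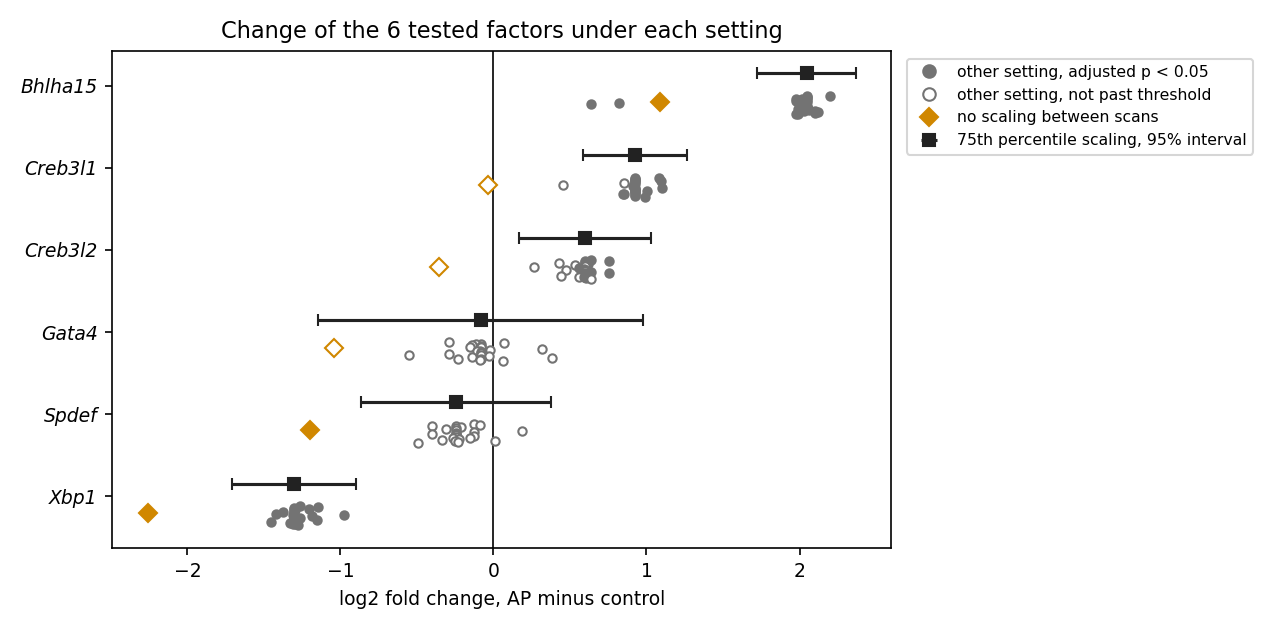
Log2 fold change, AP minus control, of the 6 tested factors; black squares with bars are the values after 75th percentile scaling with their 95% intervals, grey points are other settings (filled where the adjusted p is below 0.05) and orange diamonds are the values without scaling. Bhlha15 stays above 0 and Xbp1 below 0 at every point, and the diamonds of Creb3l1 (-0.03) and Creb3l2 (-0.36) lie below 0.

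Genes of ER to Golgi transport, among which are targets of the CREB3 family, were mostly lower. Of 18 tested, 13 were lower, none was higher and 5 did not pass (median -0.71), and 72.2% lower calls stood against 31.9% of all genes. The count of lower genes ranged from 7 with normexp and the percentile shift to 18 without scaling, and was 8 without the second control array. In 3 other settings (no filter on dim probes, 6 scans as separate replicates, scan session as a block) 1 gene was called higher. Mcfd2, a cargo receptor subunit, was 3.60-fold lower and Kdelr3, which returns ER proteins from the Golgi, 2.88-fold lower, but the difference of Kdelr3 was -0.42 with normexp and the percentile shift, against -1.53. Mbtps1, the Golgi protease that cuts the CREB3-like factors, changed by 0.59 ± 0.16 (SE, limma adjusted p = 0.0478), and by -0.37 without scaling.

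Spdef encodes an ETS factor of mucous and other secretory epithelia. Its signals were 66.7, 44.3 and 47.1 on control scans and 23.4, 24.7 and 24.6 on AP scans, where scan 1 was not well above background. All AP signals lay below all control signals. Scaled values were -1.39 ± 0.36 on control and -1.64 ± 0.13 on AP arrays (SD, n = 2 per group). The difference was -0.24 ± 0.22 (SE), with an interval of -0.86 to 0.38 and adjusted p = 0.398 (limma). Without scaling it was -1.20 and was called lower (limma adjusted p = 0.0114), where the median over all genes was -0.99. Elf3, another ETS factor of epithelia, rose by 1.04 ± 0.19 (SE, adjusted p = 0.0176) but stood at 0.08 without scaling. Of 4 mucous cell markers tested, none was higher, 1 was lower (Tff1, a trefoil peptide, at least 3.18-fold) and 3 did not pass.

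The 10 tested genes of the list of partners, relatives and activators included 4 that were higher, Tcf3, Elf3, Mbtps1 and Crebbp, and none that was lower (median 0.48), 40.0% higher beside 24.1% of all genes. Without scaling 1 was higher, 3 were lower and the median was -0.48, against -0.99 over all genes. The count of higher genes was 2 without AP 1, 2 without the second AP array, 2 without control 1 and 1 without the second control array. Crebbp, a histone acetyltransferase and coactivator, changed by 0.46 and turned to -0.49 without scaling. On this list 9 genes were at background on all scans, among them Tcf12, Gata1, Gata3, Foxa2 and the factor Nr0b2, a partner of Nr5a2. Of 9 tested genes of duct cells and progenitors, 6 were lower, none was higher and 3 did not pass (median -1.18, or -0.42 with normexp and the percentile shift). The 66.7% lower stood beside 31.9% of all genes. In 3 other settings (6 scans as separate replicates, scan session as a block, crossed replicate numbers as a block) 1 gene was called higher. The keratin Krt8 was 7.95-fold lower and Klf4, a factor that drives acinar cells towards a duct-like state, 7.33-fold lower. Both differences were below 0 under all 7 scalings or value sources, but that of Klf4 was -1.35 with normexp and the percentile shift, against -2.87. No probe matched Pdx1 or Sox9.

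**Figure D3:**
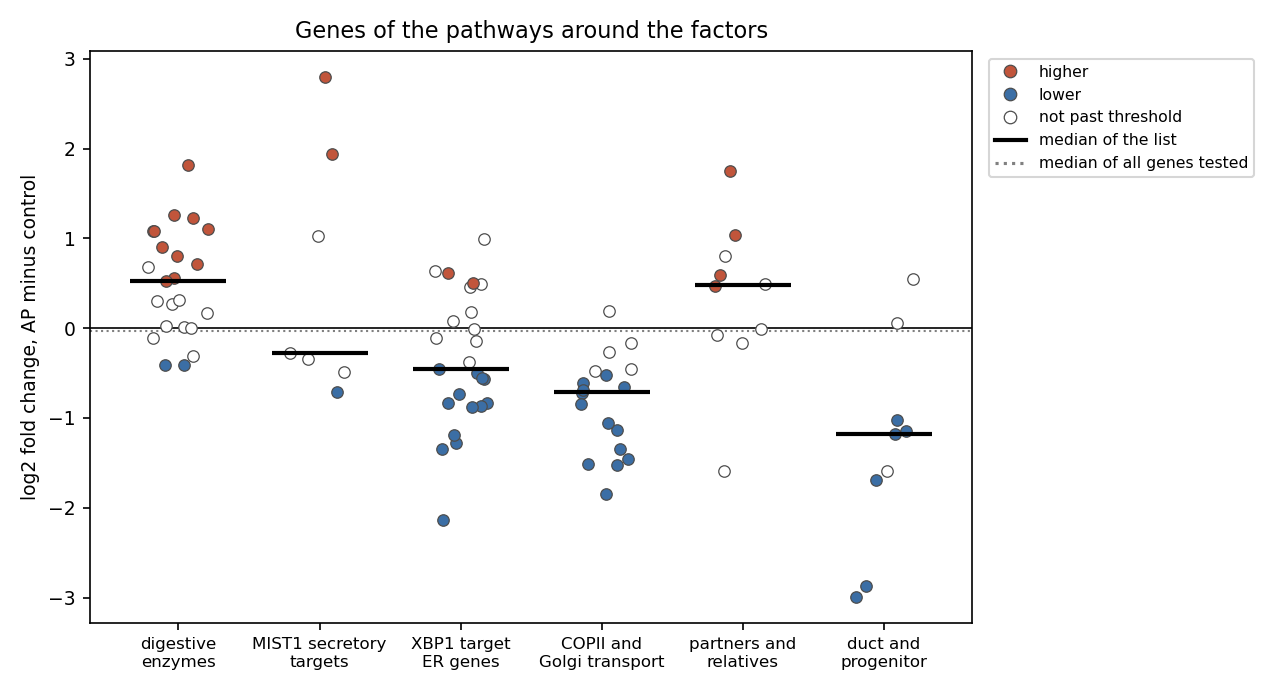
Log2 fold change, AP minus control, of each tested gene of 6 lists (1 point per gene; red higher, blue lower, white not past an adjusted p of 0.05), with the list median as a black bar and the median of all genes as a dotted line. The medians of the XBP1 targets (-0.45), the transport genes (-0.71) and the duct and progenitor genes (-1.18) lie below that line, and those of the enzymes (0.53) and partners (0.48) above it.

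Several lists of markers of other cell types also differed between the groups. Of the 11 fibroblast and mesothelial markers tested, 10 were lower, none was higher and 1 did not pass. Msln, a mesothelial surface protein, was at least 19.8-fold lower. The summed signal of the 8 of them with an unmarked spot on all scans was 83.2 to 86.0 on control and 19.2 to 22.4 on AP scans. Endothelial markers were lower in 3 of 3, and the summed signal was 10.5 to 10.8 on control and 2.73 to 2.93 on AP scans. Of 9 adipocyte markers 7 were lower and 2 did not pass (460 to 466 and 17.1 to 17.4), and of 7 erythroid markers 6 were lower and 1 was higher (645 to 747 and 30.7 to 31.5). Each sum adds unlike probes, so its brightest genes weigh most. Most of the erythroid sum came from Hbb, a globin gene, at 9.38 on control and 4.75 on AP arrays. The endothelial junction gene Esam changed by -2.46, the adipokine Retn by -5.33 and the globin Hba-a2 by -4.72, while the erythroid gene Hemgn changed by 1.22. Of 6 islet markers 2 were higher and 2 lower, with the zinc transporter Slc30a8 at least 6.19-fold higher and Ins2, an insulin gene, at least 3.65-fold lower. The neutrophil marker that was higher, the oxidase subunit Ncf1, changed by 1.22, and of 10 macrophage markers 2 were higher, with the scavenger receptor Marco at least 9.13-fold, and 3 lower, with Cd14 at -2.96. The sum of the 9 macrophage markers with an unmarked spot on all scans was 39.9 to 40.4 on control and 40.1 to 41.5 on AP scans. It leaves out Cd68, which had 1 AP array and a difference of 1.12. With normexp, which adds an offset of 50 to every signal, and the percentile shift, the differences were smaller: -3.91 for S100a8, -1.90 for Msln, -2.66 for Hba-a2, -1.42 for Cd14, -0.42 for Ins2 and -0.28 for Tff1, and 1.46 for Tnfrsf17, 1.56 for Cd79b, 1.03 for Marco and 0.83 for Slc30a8. The part of these cells in the values of Xbp1, Gata4, Creb3l1, Creb3l2 and Spdef was not tested.

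**Figure D4:**
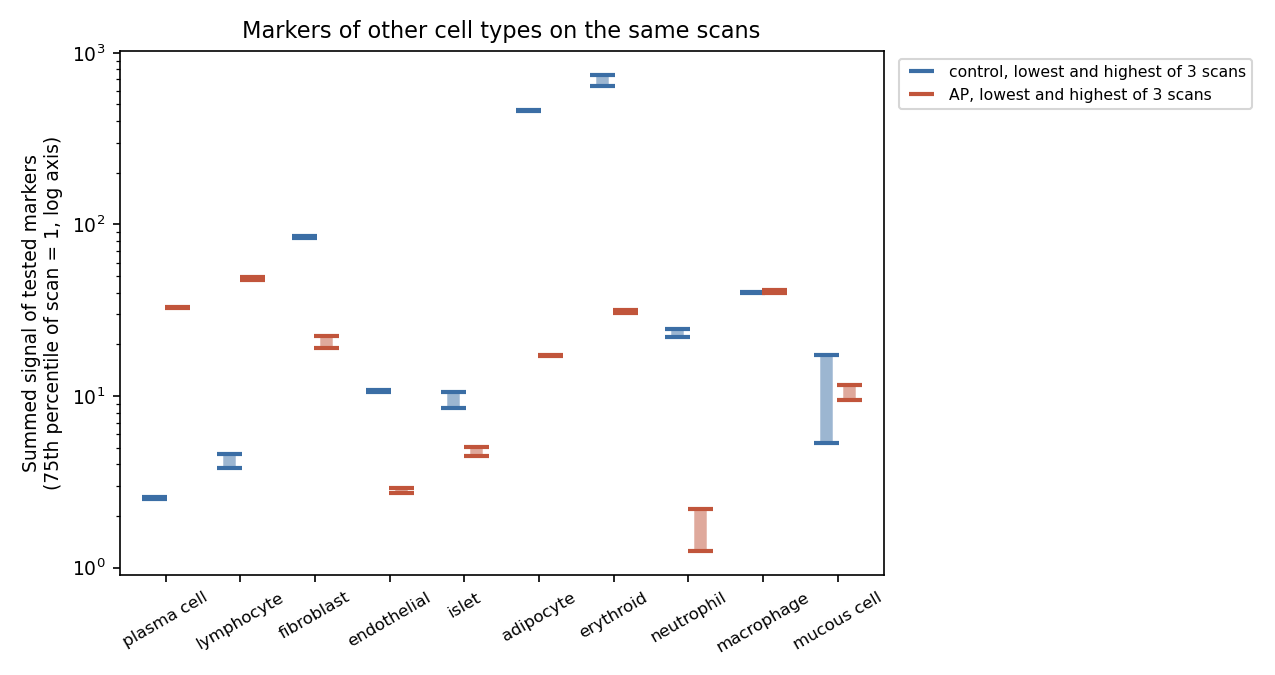
Summed signal (log axis) of the tested markers of 10 other cell types with an unmarked spot on all scans, where the 75th percentile of the scan is 1. Marks give the lowest and highest of 3 control scans (blue) and 3 AP scans (red). Each sum adds unlike probes, so its brightest genes weigh most and sums of different cell types should not be compared. Plasma cell and lymphocyte sums are higher on AP scans, while fibroblast, endothelial, adipocyte, erythroid and neutrophil sums are lower.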

How the data were processed

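Per the labels, pancreas RNA was freed of rRNA and converted to Cy3-labelled cRNA by random priming. Per the file headers, spots were quantified in Agilent Feature Extraction (version 11.0.1.1), and the deposited intensity is background-subtracted and detrended, with no scaling between arrays; median spot and background intensity are also given. The deposited normalized table is in log2; the sources used here do not give its method.

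After control and outlier-marked spots were removed, spots of 1 probe were averaged as log2 signals, and each scan's 75th percentile was subtracted. Scans of 1 array were averaged. Probes well above background on at least 3 scans were kept, and 13220 were tested with limma 3.58.1 (lmFit, eBayes, R 4.3.3) with 2 residual degrees of freedom, two-sided, Benjamini-Hochberg adjusted. The brightest probe stood for a gene. A bound ("at least") uses, for the dim group, each scan's lowest signal called well above background, or the dim probe's own where that is higher. It applies to percentile-scaled values and is not strict. Rbpjl read 17.6 on control scan 1 and was not called, where the lowest called signal was 10.8. Symbols and promoters came from RefSeq (GRCr8); gene positions were not used, since the array design was annotated on rn4. The members and lists were chosen with earlier results of these data known. The 10 factors, up to 2 genes each way of a pathway list, 1 each way of a marker list and 8 further genes were named by rule. In all 24 planned and 2 added alternatives were run, with normexp (offset 50) on the median intensity. A mean intensity had been planned for normexp, but the scanner output gives only the median. The fit was tested on simulated data. Tables and figures used Python 3.11.15, pandas 2.3.3 and matplotlib 3.10.9.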

Additional observations from a re-analysis of the deposited data

How the results depend on the processing

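Bhlha15 (0.63 to 2.20) and Xbp1 (-2.26 to -0.98) kept direction and call in all 26 alternatives. The alternatives are not independent checks. A change of the filter, the variance model or the replicate block leaves the fold change as it is, so only the call could move. The median of a gene's probes repeats the main values, because each factor has 1 probe. Taking the 6 scans as separate replicates counts rescans of an array as replicates. Creb3l1 lost its call with median scaling (0.86, adjusted p = 0.0591) and with normexp and the percentile shift (0.45, adjusted p = 0.246), and was -0.033 without scaling. Filtering for probes above background on all 6 scans gave no value for Gata4 and Spdef. Creb3l2 kept its call in 15 of 26 and was -0.36 without scaling. Members called higher numbered 1 with median scaling, 1 without scaling and 1 with normexp and the percentile shift, against 3, and 2 to 3 when 1 scan or array was left out. Without scaling 2 members were lower (Xbp1 and Spdef). With no filter on dim probes 3 members were higher, but Nr5a2, at background, was called (adjusted p = 0.0347) in place of Creb3l2 (0.0659).

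Of all probes, 7282 were called, 2659 with normexp and the percentile shift, and 4641 to 7300 when 1 scan or array was left out. A group left with 1 array takes its spread from the other group. The cause of these differences was not tested. With normexp and the percentile shift, control scans 2 and 3, which share an array, disagreed: Xbp1 was 3.33 and 2.38, Creb3l2 3.93 and 2.95. After percentile scaling alone Xbp1 was 3.82 and 3.85, and Creb3l2 4.41 and 4.43. The AP pair lay closer under that normexp setting (Xbp1 1.99 and 2.04). All values given for that setting carry this disagreement between scans. Of 1248 list values under alternatives, 204 moved. Whether replicate numbers pair the arrays is not known. Deviations of control 1 and AP 1 from their group means correlated at r = -0.21 across 13149 probes. With 2 arrays per group this is 1 comparison, which cannot decide the question. With the replicate number as a block 5516 probes were called and Creb3l2 lost its call (adjusted p = 0.0609), with 1 residual degree of freedom; with crossed numbers, chosen after seeing the data as was the first scan session alone (7233), 7292 were called. The number of arrays, 2 per group, limits the precision, and 4 of 10 factors were not above background.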
